A study of Mus musculus with 2 samples.

Results

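The desmosome and adherens junction genes of the cardiac intercalated disc were described in mouse heart. They are 10 genes taken by symbol from a list of junction components, 10 of 55536 genes in the deposited gene tables. Dsp, Pkp2, Jup, Dsg2 and Dsc2 were grouped as desmosome genes and Cdh2, Ctnna1, Ctnna3, Ctnnb1 and Vcl as adherens junction genes. The rule that picks them uses symbols alone and no measured value. Each symbol matched 1 gene identifier in both deposited quantifications of both libraries. Total RNA had been extracted from hearts of male B6CASTF1/J mice, F1 offspring of a B6 by CAST cross, aged 36 days. Stranded libraries were made from 300 ng of RNA after ribosomal RNA reduction, with ERCC spike-ins, which are synthetic RNAs of known sequence. The labels give 1 group with 2 biological replicates and no treatment. Separate biosamples were recorded for the replicates but a shared donor record. The labels do not say if this means 1 animal, so the spread between replicates may be partly technical. Below, the word heart stands for 1 replicate library, and a match between hearts need not be a match between animals.

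Intercalated discs are the end-to-end contacts between cardiomyocytes. In their desmosomes, cadherins of the desmoglein and desmocollin families bind those of the neighbouring cell, the armadillo proteins plakoglobin and plakophilin dock on the cadherin tails, and desmoplakin ties this plaque to desmin filaments. In their adherens junctions, N-cadherin binds β-catenin or plakoglobin, α-catenin binds either of these, and α-catenin and vinculin hold the actin filaments of the outermost sarcomeres. In cardiac muscle the components of both junction types also mix within the same stretches of membrane, and mutations of the human desmosome genes are known from arrhythmogenic cardiomyopathy.

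All 10 genes were detected in both hearts, from 11.8 to 195.2 TPM. TPM divides counts by transcript length and scales every library to the same total, so it allows levels of different genes to be compared. Whether reads of CAST alleles were counted as fully as those of B6 alleles was not tested. Means are given ± SD with n = 2 throughout, from the first of the 2 deposited quantifications unless the second is named. The first was made from alignments to the transcriptome and the second directly from the reads. By mean TPM the order was Dsp, Ctnna1, Ctnnb1, Jup, Cdh2, Pkp2, Vcl, Dsg2, Ctnna3 and Dsc2. The values of Dsp and Ctnna1 overlapped between hearts, as did those of Ctnna1 and Ctnnb1. The other 7 neighbours in this order were separate: the lower value of the upper gene lay above the higher value of the lower gene. In the second quantification Ctnna3 passed Dsg2 in the mean, at 21.5 against 20.96 TPM, with Ctnna3 higher in replicate 1 (20.1 against 18.9 TPM) and both close in replicate 2 (22.97 and 22.98 TPM). The largest step between neighbours was from Vcl to Dsg2, at 2.17-fold between the means, followed by 1.72-fold from Ctnnb1 to Jup. The whole set made up 0.221% of the TPM of nuclear protein-coding genes in replicate 1 and 0.240% in replicate 2. Desmosome genes held 41.9% and 43.2% of the set's TPM in replicates 1 and 2, and Dsp held the largest part of these. All such shares are of RNA from mixed heart tissue, and the cell types that made each transcript were not measured. In raw reads Dsp weighed more, because its transcript is long: it took 43.6% and 45.2% of the set's 118998 and 130403 expected counts. With 2 samples of 1 group no test of a difference was possible, since an exact sign permutation cannot go below p = 0.5.

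**Figure D1:**
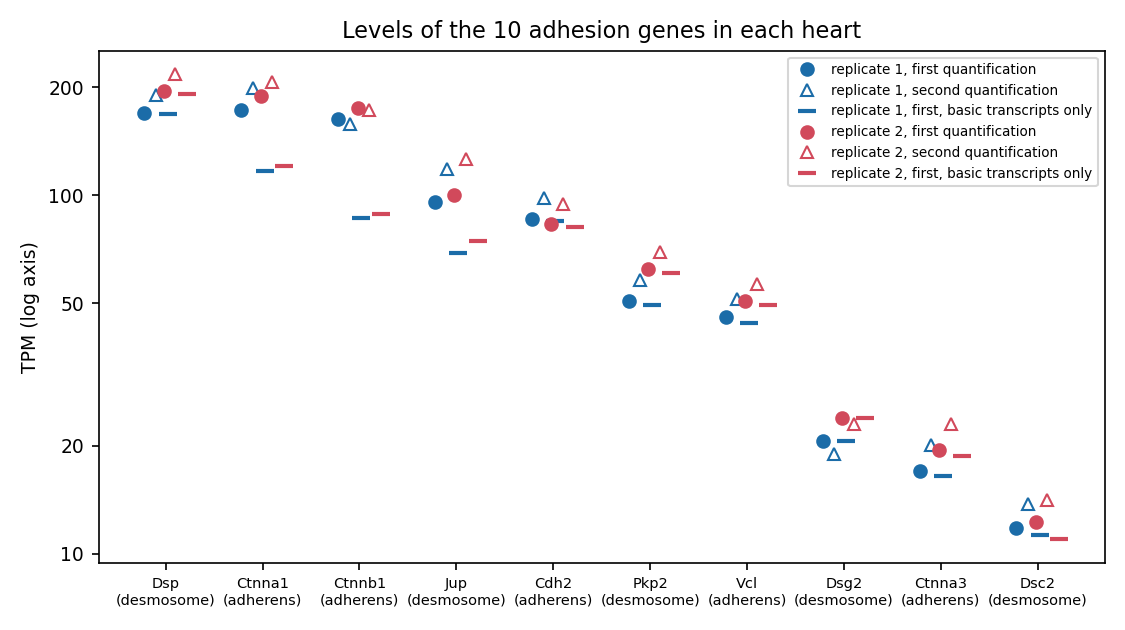
TPM of the 10 genes on a log axis, with 1 mark per heart for the first quantification (filled circles), the second quantification (open triangles) and the first quantification restricted to transcripts of the annotation's basic set (dashes). Dsp, Ctnna1 and Ctnnb1 lie between 163 and 195.2 TPM in the first quantification, and the basic-set values of Ctnnb1 and Ctnna1 fall below their totals.

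The library pair can be described briefly. Replicates 1 and 2 held 41642670 and 42281743 expected counts on genes and 203838 and 199815 on spike-ins. All 7 cardiomyocyte markers were present, with a summed level of 20622 and 22682 TPM. Markers of erythroid cells summed to 20328 and 9336 TPM, a 2.18-fold higher level in replicate 1, with Hba-a1, Hba-a2, Hbb-bs, Hbb-bt, Alas2 and Slc4a1 all more than 1.5-fold higher there. Adipocyte markers summed to 75.5 and 8.28 TPM, 9.11-fold higher in replicate 1, with Adipoq, Plin1, Cidec, Ucp1 and Cfd past 1.5-fold and Lep too low to be tested.

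The desmosomal cadherins were the least abundant desmosome transcripts. Dsg2, desmoglein-2 (chromosome 18, 20558074 to 20604521, plus strand), stood at 20.6 TPM in replicate 1 and 23.9 TPM in replicate 2 (22.3 ± 2.37). Its partner Dsc2, desmocollin-2 (chromosome 18, 20030633 to 20059554, minus strand), stood at 11.8 and 12.3 TPM (mean 12.05 ± 0.332). The values did not overlap, and Dsg2 supplied 63.5% and 66.1% of the TPM of both genes. Among nuclear protein-coding genes, 22015 in all, Dsg2 ranked 2562 and Dsc2 4323, the lowest rank of the 10. These were the desmosomal cadherins of this tissue at the depth reached. Dsg2 held 99.95% of desmoglein TPM and Dsc2 100% of desmocollin TPM. Dsg1c, Dsg3, Dsg4, Dsc1 and Dsc3, family members known mainly from stratified epithelia, had 0 counts in both hearts. A count of 0 leaves room for 3 counts, which is 0.0720 CPM in replicate 1 and 0.0710 CPM in replicate 2. Dsg1a and Dsg1b had 1 count each in 1 heart.

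Transcript models of both cadherins were shared out differently by the quantifications. For the first, the authors deposited each annotated transcript's percent of its gene. Dsg2-201, the full-length model with 3366 nt of coding sequence, held 64.7% and 62.5% in replicates 1 and 2. A short coding model of 953 nt, Dsg2-203, held 34.7% and 36.9%, on 206 and 255 counts, and only 71 of its bases lie in no other Dsg2 transcript. In the second quantification Dsg2-201 held 83.5% and 78.0%. For Dsc2 the leading transcript changed. Dsc2-201 carries an extra exon of 46 nt (chromosome 18, 20032490 to 20032535) and has the shorter coding sequence, 2544 nt against 2706 nt in Dsc2-202. Such an exon separates the b and a forms of desmocollins, which differ in the cytoplasmic tail. Dsc2-201 held 53.8% and 48.4% in the first quantification against 41.7% and 41.0% for Dsc2-202. In the second it held 23.7% and 24.3% against 49.2% and 47.7%, and Dsc2-203, a model marked for nonsense-mediated decay, held 24.1% and 26.0%. Both hearts gave the same order within a quantification, so the choice of leading Dsc2 form rests on the quantification.

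Transcripts of the armadillo proteins of the desmosomal plaque had higher TPM than those of the cadherins they bind. Jup, plakoglobin, which serves desmosomes and adherens junctions (chromosome 11, 100368958 to 100397763, minus strand), stood at 95.7 and 100.5 TPM (98.1 ± 3.35). Pkp2, plakophilin-2 (chromosome 16, 16213318 to 16272712, plus strand), stood at 50.8 and 62.2 TPM (56.5 ± 8.08). Neither range touched that of Dsg2, and both genes were slightly higher in replicate 2. Pkp2 was almost wholly 1 model, Pkp2-201, with 97.5% and 97.6% of its TPM. Jup was less uniform. Its coding model Jup-201 held 71.9% and 73.1%, and a noncoding model of 502 nt, Jup-205, held 21.4% and 16.6% on 277 and 227 counts. The second quantification gave Jup-205 no counts and put 28.9% and 29.1% on another short noncoding model, Jup-203, and 16.8% and 16.2% on the coding model Jup-202. Jup-202 and Jup-201 have coding sequences of the same length, 2235 nt. Since short models weigh heavily in TPM, coding models held 73.0% of Jup's TPM but 93.8% of its counts.

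Dsp, desmoplakin, the plakin that links the plaque to desmin, had the highest mean of the 10 (chromosome 13, 38151294 to 38198577, plus strand). It stood at 169.8 TPM in replicate 1 and 195.2 TPM in replicate 2 (182.5 ± 18.0), rank 304 among nuclear protein-coding genes. Replicate 2 was the higher, and Ctnna1 exceeded Dsp in replicate 1 only. Both coding models have 24 exons and differ chiefly in exon 23, where Dsp-202 uses a splice donor 1797 bases upstream of that of Dsp-201. The coding sequence is thereby 6852 nt in place of 8649 nt, or 599 codons shorter. This is the known distinction between desmoplakin I and II, whose rod domains differ in length. The junctions that tell the models apart are shown, with 30 bases of exon 23 in lower case joined to the first 30 bases of exon 24 in capitals, 5′ to 3′, from the GENCODE M21 transcripts (GRCm38). The exon 24 side is chr13:38194696-38194725 in both, and the exon 23 side is chr13:38193626-38193655 in Dsp-201 and chr13:38191829-38191858 in Dsp-202.
Dsp-201: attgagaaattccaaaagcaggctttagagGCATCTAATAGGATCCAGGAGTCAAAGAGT
Dsp-202: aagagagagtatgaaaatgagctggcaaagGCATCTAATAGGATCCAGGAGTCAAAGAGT
Every exonic base of Dsp-202 also lies in another Dsp transcript, so only reads across its junction speak for it directly. Dsp-201 has 1831 exonic bases that Dsp-202 lacks, in the 3′ part of exon 23 and in the 34 bases before the start of Dsp-202.

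The long form led in both quantifications, and the size of the short one differed between them. Dsp-201 held 80.6% and 77.2% of Dsp TPM in the first quantification, and Dsp-202 held 18.4% and 20.8%. The authors' posterior SD was 349 and 380 reads on 8072 and 10528 reads for Dsp-202. The second quantification gave Dsp-202 1789 and 2707 reads, 3.68% and 4.85% of the gene's TPM. That gap is far wider than the posterior SD of the first quantification and than the difference between hearts. Whether junction reads favour either estimate was not analysed here. The other plakins were scarce. Dsp held 98.97% of the TPM of Dsp, Ppl and Evpl, with periplakin (Ppl) at 1.68 ± 0.170 TPM and envoplakin (Evpl) at 0.225 ± 0.00707 TPM.

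N-cadherin, encoded by Cdh2 (chromosome 18, 16588877 to 16809246, minus strand), is the classical cadherin of the disc. It stood at 86.0 TPM in replicate 1 and 83.5 TPM in replicate 2 (84.7 ± 1.77), and was the only gene of the 10 with the lower TPM in replicate 2. Both annotated coding models held about equal estimated shares of Cdh2 TPM. Only 112 bases of Cdh2-202 lie in no other Cdh2 transcript. Cdh2-201, with 2718 nt of coding sequence, held 48.3% and 47.8%, and Cdh2-202, with 2547 nt, held 50.5% and 49.8%. Their start sites lie 139177 bases apart, and each has first exons of its own, of 912 and 112 nt for Cdh2-201 and of 112 nt for Cdh2-202. In the second quantification Cdh2-201 led with 52.1% and 53.2% against 46.7% and 44.4%. Within a quantification the hearts gave the same order. By counts, 6635 and 6399 fell on Cdh2-201 and 5383 and 5172 on Cdh2-202 in the first quantification, so the longer model led by reads in both.

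Among transcripts of the α-catenins, which link the cadherin complex to actin, those of Ctnna1 dominated in this tissue. Ctnna1, αE-catenin (chromosome 18, 35118859 to 35254779, plus strand), stood at 172.5 and 189.2 TPM (180.9 ± 11.8). Ctnna3, αT-catenin, the form known from heart and testis (chromosome 10, 63430098 to 65003667, plus strand, a gene spanning 1573570 bases), stood at 17.0 and 19.5 TPM (18.3 ± 1.78). Ctnna1 thus held 91.0% and 90.6% of their joint TPM. This is a share of RNA from heart tissue with its mixed cell types. The share within cardiomyocytes or at the disc was not measured. Ctnna2, the neural form, had 3 counts and 0 counts. The main model of Ctnna1, Ctnna1-201, held 67.8% and 63.8%. An incomplete coding model of 519 nt, Ctnna1-208, held 22.8% and 27.2% on 557 and 731 counts in the first quantification and received no counts in the second, which instead put 26.4% and 27.7% on Ctnna1-204, of 1453 nt. Ctnna1-201 by itself stood at 118.8 ± 2.68 TPM.

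β-catenin, encoded by Ctnnb1, binds the N-cadherin tail and is also the transducer of canonical Wnt signalling (chromosome 9, 120929216 to 120960507, plus strand). It stood at 162.9 TPM in replicate 1 and 175.5 TPM in replicate 2 (169.2 ± 8.87), above Jup in both hearts. Ctnnb1 held 63.0% and 63.6% of the TPM of these armadillo paralogs. Much of its TPM lay outside the full-length models. Ctnnb1-201, with 2343 nt of coding sequence, held 40.3% and 36.3%, and Ctnnb1-214, which has a coding sequence of the same length, held 12.8% and 14.4%. Ctnnb1-215, a retained-intron model of 1292 nt, held 32.5% and 33.7%. It shares 1199 of its bases with Ctnnb1-201 and has 93 bases in no other transcript of the gene. The second quantification gave Ctnnb1-201 61.7% and 58.2% and Ctnnb1-215 15.4% and 16.6%, and a coding fragment of 714 nt, Ctnnb1-207, held 13.2% and 16.05% there.

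Vcl, vinculin, which is recruited to α-catenin and binds actin at both cell-cell and cell-matrix junctions (chromosome 14, 20929398 to 21033676, plus strand), stood at 45.9 and 50.7 TPM (48.3 ± 3.41). Its range lay just under that of Pkp2, with 1.17-fold between the means. A single coding model, Vcl-201, with 3198 nt of coding sequence, held 95.8% and 97.7% of its TPM. Metavinculin, a muscle form with an extra exon, was not analysed here, since the longest coding sequence among the 3 Vcl models is that of Vcl-201. At its 3′ end Vcl overlaps Ap3m1, on the opposite strand, over 2235 bases. Ap3m1 had 1177 and 1166 counts against 7729 and 8703 for Vcl, and the labels do not say whether the counting used strand, so a part of either gene's counts could belong to the other. The other genes that overlap the 10 had 10 counts or fewer in each heart.

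Vcl was the only gene with a CArG box, the binding motif of serum response factor, among those of the 10 with promoter windows. The windows run from 250 bases before to 50 after a start site in RefSeq (GRCm38.p6), and 8 were found for Ctnnb1, Ctnna3, Jup, Dsp and Vcl. In Vcl the match begins 227 bases before the start. It is marked in capitals in the first 60 bases of the window, chr14:20929148-20929207, plus strand, 5′ to 3′.
Vcl: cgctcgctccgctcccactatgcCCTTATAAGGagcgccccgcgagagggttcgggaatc
A CArG box on either strand was present in 1.63% of 32851 windows of this length. Searched on both strands and free to overlap, TATAAA matched in 2 of the 8 windows (13.6% of all windows) and CATTCC in 2 (14.7%). The MEF2 site (3.19%), TGANTCA (7.81%), AGATAA (11.2%) and CACGTG (7.15%) matched in 0 of 8. A match describes the letters only. The windows of Ctnnb1, Dsp, Jup and Vcl and the upstream one of Ctnna3 had 60.7% to 75.3% G or C, above the median of 52.7% over all windows, and the others of Ctnna3 had 46% and 47.3%.

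Ctnna3 has several annotated starts, and the share given to a minor one depended on the quantification. Ctnna3-202 and Ctnna3-203 have coding sequences of the same length, 2685 nt, and first exons of 155 and 82 nt that start 27412 bases apart. The first quantification gave 97.2% and 96.0% of Ctnna3 TPM to Ctnna3-202 and no counts to Ctnna3-203. In the second Ctnna3-202 held 77.3% and 73.8% and Ctnna3-203 held 19.3% and 21.5%. Ctnna3-202 led in both hearts either way. Only the second quantification thus divided the gene between these starts. The stretches of 150 bases before both starts are therefore shown, as RefSeq sequence of GRCm38.p6, plus strand, 5′ to 3′. They are chr10:63457361-63457510 for Ctnna3-202 and chr10:63429948-63430097 for Ctnna3-203, and the capitals mark a match of CATTCC on the reverse strand. For Ctnna3-202 the RefSeq start, 63457511, was used. The GENCODE start is 63457510, so the last base shown is the first of that model.
upstream of Ctnna3-202: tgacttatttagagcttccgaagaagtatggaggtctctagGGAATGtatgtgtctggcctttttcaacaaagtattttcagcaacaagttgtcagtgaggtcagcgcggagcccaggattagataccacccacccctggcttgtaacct
upstream of Ctnna3-203: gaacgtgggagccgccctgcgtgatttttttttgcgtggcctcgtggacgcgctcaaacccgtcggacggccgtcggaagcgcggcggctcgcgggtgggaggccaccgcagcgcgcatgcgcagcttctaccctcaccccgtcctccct
The stretch before Ctnna3-202 has 46.7% G or C and 3 CpG dinucleotides, and that before Ctnna3-203 has 69.3% and 22.

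The levels of Ctnnb1, Ctnna1 and Jup depended on which annotated transcripts were summed. Models of the basic set, GENCODE's selection of representative transcripts, held 51.9% of the TPM of Ctnnb1, 65.8% of Ctnna1 and 73.0% of Jup on average, and between 92.4% and 100% of the other 7. By counts the same 3 genes reached 76.4%, 90.1% and 93.8%, because the remaining models are short. On the basic set alone, an alternative chosen after seeing the data, Dsp stood clear of the others at 179.8 ± 16.4 TPM, ahead of Ctnna1 at 118.8 ± 2.68 and Ctnnb1 at 87.7 ± 1.75 TPM. Cdh2 followed at 83.2 ± 2.49 TPM and passed Jup at 71.7 ± 4.00 TPM. The order of the 10 basic-set means was the same in both quantifications. In replicate 1 of the second quantification, however, Ctnna3 stood above Dsg2, at 19.4 against 18.9 TPM. The desmosome genes then held 48.9% of the set's TPM. Of the 10 genes, 8 had the same leading transcript in both hearts and both quantifications, and Dsc2 and Cdh2 were the exceptions.

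**Figure D2:**
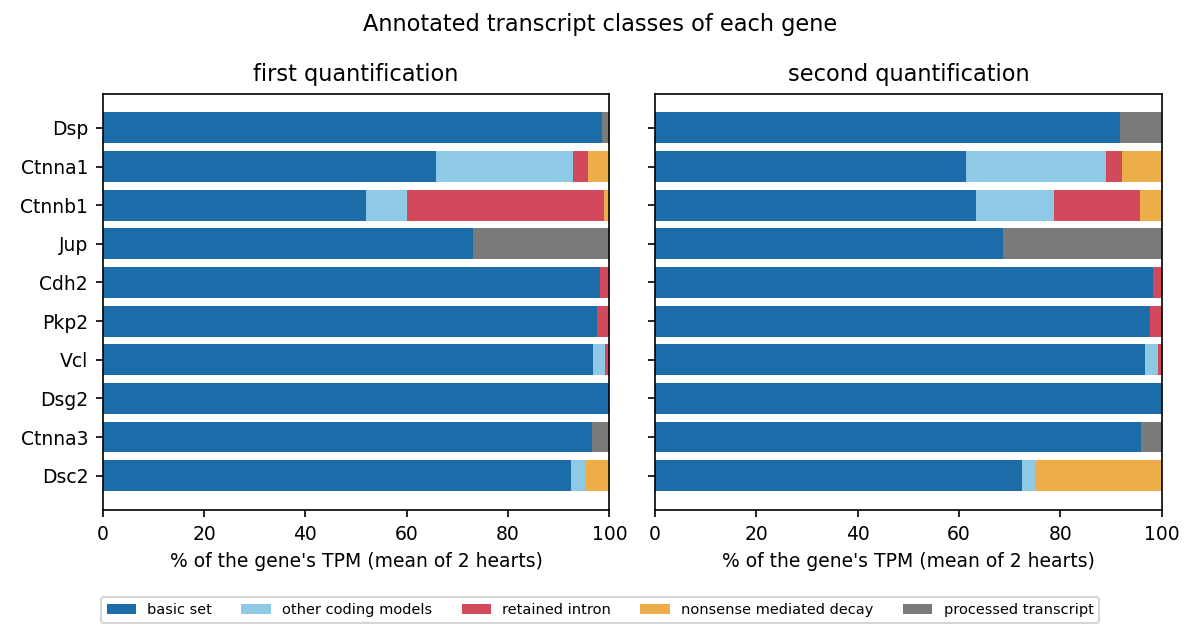
Stacked bars give the percent of each gene's TPM in each annotated transcript class, as the mean of both hearts, in the first (left) and the second quantification (right). Retained-intron models hold 38.9% of Ctnnb1 in the first and 16.9% in the second, while Pkp2, Vcl and Ctnna3 consist almost wholly of basic-set models in both.

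**Figure D3:**
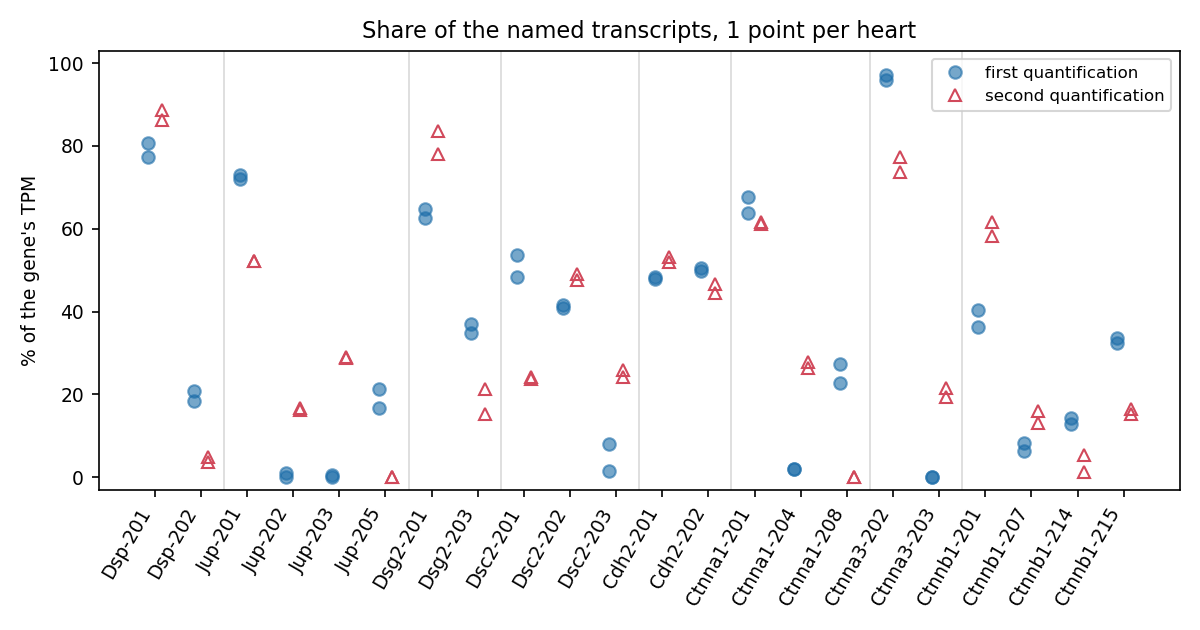
Percent of the gene's TPM held by each transcript with 10% or more in either quantification, for genes with several such transcripts, with 1 point per heart, for the first (circles) and the second quantification (triangles). The hearts lie close together for most transcripts. Examples of wider gaps are Dsc2-203 in the first quantification (1.61% and 8.06%) and Dsg2-203 in the second (15.3% and 21.2%). Among others, the quantifications part for Dsp-202, Dsc2-201, Dsc2-203, Ctnna3-203, Jup-202, Jup-203, Jup-205, Ctnna1-204, Ctnna1-208 and Ctnnb1-215.

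Between the hearts, the 10 genes differed little. The log2 ratio of replicate 2 over replicate 1 was computed on scaled expected counts, with a 95% interval that covers counting error only. Pkp2 had the largest ratio, 0.25 (interval 0.20 to 0.31), or 1.19-fold. Ctnna3 followed at 0.15 (0.06 to 0.24), then Dsp at 0.14 (0.12 to 0.16), Dsg2 at 0.14 (0.07 to 0.21) and Vcl at 0.13 (0.08 to 0.17). Jup had 0.07 (0.02 to 0.11), while the intervals of Ctnna1, Ctnnb1 and Dsc2 held 0. Cdh2 alone was lower in replicate 2, at -0.09 (-0.12 to -0.05).

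The ratios were set against those of the rest of the transcriptome. Over the 12541 genes whose expected counts averaged 50 or more, 0 of the 10 differed by 1.5-fold or more, where 4.28% of all genes did, and 0 by 2-fold, where 1.28% did. With 10 genes, a count of 0 is close to these background shares. A ratio above 0 was found for 9 of the 10, against 50.1% of all genes. The interval lay wholly above 0 for 6 (15.5% of all genes) and wholly below 0 for 1 (16.8%). Among the 4289 genes with a mean count of 1000 or more, as all 10 have, those shares were 23% and 22.4%. The central 95% of these abundant genes ran from -0.4101 to 0.2505. Pkp2, at 0.2521, lay just above it, and the other 9 lay within it. The median ratio was 0.10 for the 10 genes, 0.14 for the desmosome genes and 0.02 for the adherens genes, against 0.00032 for all genes tested. Scaling by the spike-ins raised the median of all genes to 0.07 and Pkp2 to 0.33, and Cdh2 remained the only one of the 10 below 0, at -0.01.

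**Figure D4:**
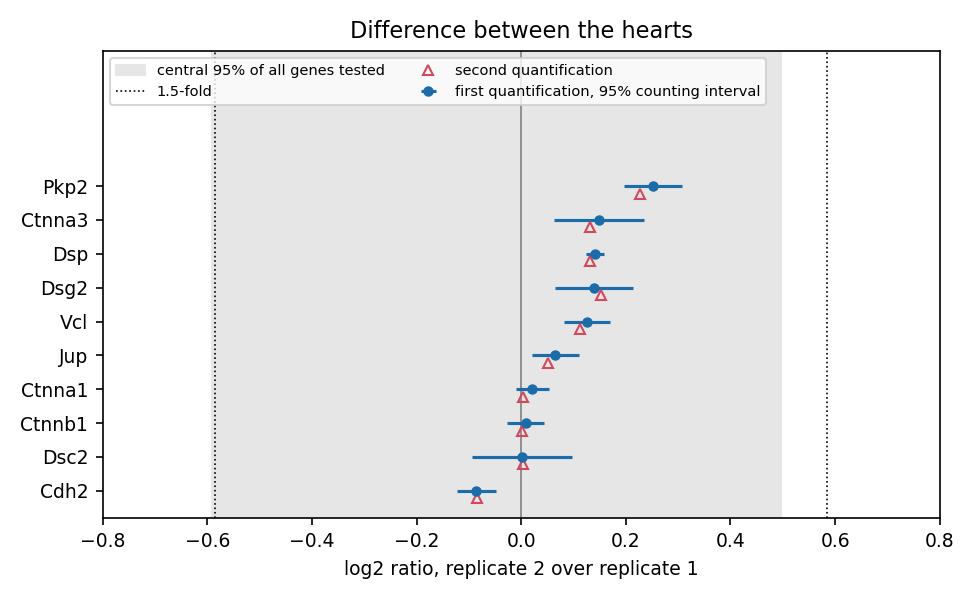
The log2 ratio of replicate 2 over replicate 1 for each gene, with the 95% counting interval in the first quantification (circles) and the value in the second (triangles). Grey marks the central 95% of all genes tested, -0.59 to 0.50, dotted lines mark 1.5-fold, and all 10 genes lie within the grey band.

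Cell type markers also differed between the hearts. All 7 cardiomyocyte markers had ratios above 0, with a median of 0.09, close to that of the junction genes. Fibroblast markers had a median of -0.37, with 1 of 6 above 0 and summed levels of 505 and 431 TPM, and mesothelial markers had -0.43, with 0 of 6 above 0 and 26.3 and 19.7 TPM. Endothelial markers summed to 189 and 220 TPM, with 2 of 6 above 0 and a median of -0.03. Those above 0 were Kdr, at 0.43, and Egfl7, at 0.55. Macrophage markers summed to 63.2 and 61.8 TPM, with 3 of 6 above 0 and a median of -0.0017, but Cx3cr1 had 73 and 255 counts, a ratio of 1.75. Upk1b, at -0.64, was the only mesothelial marker past 1.5-fold. Pericyte and smooth muscle markers summed to 230 and 235 TPM, with 2 of 6 above 0 and a median of -0.02. Kdr, Egfl7, Cx3cr1 and Upk1b are named after their values were seen. Of the 7 epithelial markers, Krt5 and Cldn4 had 0 counts in both hearts, Epcam had 1 count and 0 counts, and Perp, named after its values were seen, was the only one at 1 TPM or more in both, at 44.0 ± 0.156 TPM. The part of these markers in the ratios of the junction genes was not tested. In whole tissue, fewer cells of a type and less RNA per cell cannot be told apart.

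In the first quantification Dsg2, Dsc2, Dsp, Ctnna1 and Cdh2 had the highest TPM of their families, and Pkp2 did not. Only 2 of 12 desmosomal relatives reached 1 TPM in both hearts, Pkp4 at 67.4 and 72.8 TPM (70.1 ± 3.80) and Ppl. Pkp4, plakophilin-4, a p120-catenin-like armadillo protein, thus exceeded Pkp2 in gene-level TPM in both hearts, and Pkp2 held 42.9% and 46.0% of plakophilin TPM. On protein-coding models alone the order turned: Pkp4 stood at 21.3 ± 2.76 TPM, 30.4% of its total, Pkp2 at 55.1 ± 7.93 TPM, and Pkp2 held 71.9%. The noncoding model Pkp4-209 held 26.0% and 28.8% of Pkp4. Pkp1 and Pkp3, plakophilins of epithelia, had at most 4 counts in a heart. Neither Pkp4 nor Ppl differed by 1.5-fold between hearts.

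Among adherens relatives, 8 of 14 reached 1 TPM in both hearts. Cdh13, the GPI-anchored T-cadherin, stood at 67.9 ± 0.863 TPM and Cdh5, the endothelial VE-cadherin, at 57.2 ± 2.04 TPM, both below Cdh2 in each heart. Cdh2 held 39.6% and 38.9% of the TPM of 8 listed cadherins. The second quantification put Cdh5 at 106.5 TPM, above Cdh2 at 96.4, with 41.0% and 40.9% of Cdh5 on a model of 346 nt, Cdh5-202. Tln1, talin-1, which activates integrins and recruits vinculin at cell-matrix contacts, stood at 44.0 ± 0.792 TPM. Of the 9 relatives with enough counts, 2 had a ratio above 0 and the median was -0.05. Cdh3, P-cadherin, was the only one past 1.5-fold, with 69 counts in replicate 1 and 44 in replicate 2 (log2 ratio -0.68, interval -1.27 to -0.13).

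**Figure D5:**
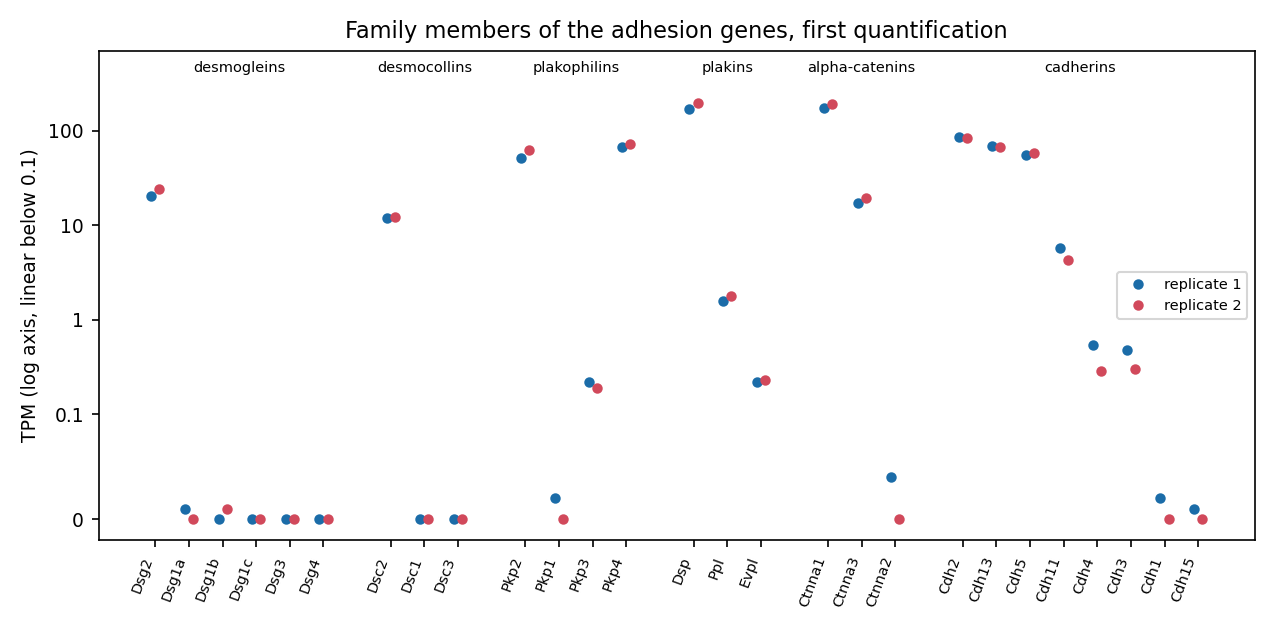
TPM of each family member in each heart in the first quantification, on an axis that is logarithmic above 0.1 and linear below it, with families set side by side. Dsg2, Dsc2, Dsp, Ctnna1 and Cdh2 are the highest of their families in both hearts, and Pkp4 lies above Pkp2.

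Transcripts of the other listed disc proteins were all detected in the tissue. Of 19 listed genes, 19 reached 1 TPM in both hearts, 15 had a ratio above 0, 0 differed by 1.5-fold, and the median ratio was 0.08. Actn2, the α-actinin of the Z disc, stood at 627.8 ± 22.4 TPM and Des, desmin, the filament that desmoplakin anchors, at 443.5 and 524.3 TPM (483.9 ± 57.1). The second quantification turned their order, with Des at 805.8 and Actn2 at 676.4 TPM. Lmo7, a LIM-domain protein of cell junctions, stood at 128.1 ± 6.55 TPM. Des had a ratio of 0.20 (0.18 to 0.22), next to 0.14 for Dsp.

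The listed genes that control β-catenin or act with it in the nucleus all had lower TPM than the gene total of Ctnnb1. Of 11 listed, 9 had enough counts, 2 of these had a ratio above 0, 0 differed by 1.5-fold, and the median was -0.03. The highest means in the first quantification were those of kinases and Apc, all components of the β-catenin destruction complex. Csnk1a1, casein kinase 1α, stood at 71.2 ± 0.566 TPM. Gsk3a, glycogen synthase kinase 3α, stood at 23.9 ± 1.39 TPM and Apc at 19.5 ± 0.976 TPM. Gsk3b, glycogen synthase kinase 3β, was close to Apc at 19.1 ± 0.276 TPM and exceeded it in the second, at 25.6 against 15.9 TPM. Csnk1a1 lay closer to the 87.7 TPM of Ctnnb1 on basic-set models, a restriction not applied to Csnk1a1. The nuclear partners Tcf7l2, Tcf7l1, Tcf7 and Lef1 had means of 4.86, 4.265, 0.215 and 0.11 TPM in the first quantification. Csnk1a1, Gsk3a and Apc differed between hearts by less than 1.5-fold, as Ctnnb1 did.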

How the data were processed

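For the first quantification the authors deposited expected counts per gene and transcript, with a posterior SD of each transcript's count. TPM and each transcript's percent of its gene's TPM were deposited as well. Per the headers and sample notes, this quantification was made from transcriptome alignments on mm10 with GENCODE M21. Estimated counts and TPM of the second, made from the reads, were deposited by the authors per transcript and summed here per gene. Aligner, counter and versions: not given in the sources used here. Gene classes and positions came from GENCODE M21, counted from 1. All 10 symbols matched.

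Expected counts, rounded to whole numbers, were scaled by TMM in edgeR 4.0.16 (R 4.3.3) without spike-ins. Log2 ratios used a prior count of 1 and exact Clopper-Pearson intervals at 95%, which cover counting error only, as PCR copies of a molecule cannot be told apart without identifiers. Fold thresholds are rules of size over genes with a mean count of 50 or more. Members and lists were chosen with earlier results of these data known. Of each list of relatives, disc genes and β-catenin partners the 3 genes of highest mean TPM, those past 1.5-fold and those at 0 counts are named, marker genes where a list's summed level differed 1.5-fold, and transcripts holding 10% or more of a member's TPM in either quantification. Any other was chosen after its values were seen. The ratio calculation was checked on simulated counts with planted changes larger than any ratio of the 10 genes. That check does not cover ratios as small as theirs. Alternatives covered library-total, DESeq2 1.42.0 and spike-in scaling, a prior count of 5, a count minimum of 10, units, transcript classes, the second quantification and each replicate alone. Sequences from mouse chromosome 18 were not used here.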

Additional observations from a re-analysis of the deposited data

How the results depend on the processing

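No group was compared, so these limits concern levels and shares. In the second quantification the set held 0.197% of nuclear protein-coding TPM, desmosome genes 44.0% of the set, Ctnnb1 57.5% of Ctnnb1 and Jup, Ctnna1 90.4% of the α-catenins, Dsg2 59.9% of Dsg2 and Dsc2, Pkp2 47.3% of plakophilins and Cdh2 34.8% of cadherins. As shares of expected counts, not per length, these were 0.503%, 58.9%, 61.4%, 88.2%, 62.3%, 48.1% and 46.2%. On protein-coding transcripts alone desmosome genes held 44.8%, Ctnnb1 58.6%, Ctnna1 90.5%, Pkp2 71.9% and Cdh2 44.6%. On basic-set transcripts alone, chosen after seeing the data, they held 48.9%, 55.0%, 87.1%, 72.2% and 44.9%. Fewer transcripts were summed in these last settings, and the cause of the other shifts was not tested. Without replicate 1 or 2 in turn the shares ranged from 0.221% to 0.240% for the set, 41.9% to 43.2% for desmosome genes, 63.0% to 63.6% for Ctnnb1, 90.6% to 91.0% for Ctnna1, 63.5% to 66.1% for Dsg2, 42.9% to 46.0% for Pkp2 and 38.9% to 39.6% for Cdh2, and 8 genes kept the same leading transcript each time. The number of genes 1.5-fold or 2-fold apart was 0 under every scaling, prior count, count minimum and quantification tried, and cannot be had with a replicate left out. None of 60 recomputed ratios of the 10 genes reversed, and 13 fell outside the counting interval of the main value, with Pkp2 the highest at 0.33 under spike-in scaling. No paired analysis was possible because there is only 1 group. Depth limits the unexpressed relatives, where 0 counts allow up to 3.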
